A study of Mus musculus with 2 samples.

Results

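Venous endothelial cells were selected from single-cell RNA sequencing of mouse lung by their RNA. A barcode was kept when it had 1000 to 5000 genes, under 20% mitochondrial UMIs (unique molecular identifiers, each standing for 1 captured transcript), at least 2 of the endothelial genes Pecam1, Cdh5, Cldn5 and Egfl7, and no UMI of the leukocyte gene Ptprc. Of those, the venous cells had at least 3 of the 6 vein markers Slc6a2, Car8, Bst1, Cytl1, Cpe and Prss23 and at most 1 of 6 exclusion genes. The exclusion genes were the capillary aerocyte genes Ednrb, Fibin and Tbx2 and the arterial genes Gja5, Bmx and Fbln5. The rule gave 513 venous cells among 13035 endothelial barcodes, 240 from the control and 273 from the metastatic library.

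Both libraries came from wild type male C57BL/6 mice of 8 to 10 weeks. The control mice received PBS through the tail vein and the metastatic mice received 200000 B16-F10 melanoma cells, a mouse skin melanoma line of the same strain, labelled with CellTracker Green. Lungs were taken after 6 h, digested with collagenase and sorted for Pecam1 on the cell surface, with 2 mice behind each group. With 1 library per group there was no replicate, so no test between the groups was made and every interval below is a 95% interval that covers counting error only, not the spread between mice. Levels are UMIs summed over the cells of a class in a library, expressed as CPM relative to all UMIs of that class, and a ratio is the log2 of the metastatic over the control CPM. CPM were not corrected for transcript length, since this assay counts transcripts by their 3' ends. RNA of 8 melanocyte genes, which B16-F10 cells carry, was in both libraries: in barcodes with 11 to 50 UMIs (25507 in the library labelled control and 26993 in the other) these genes summed to 5422 and 5415 CPM, with Dct leading at 2271 and 2247 CPM. In the library labelled control 44 barcodes with at least 300 genes had 2 or more of the 8, against 30 in the metastatic library. The source of this RNA in the library of mice given PBS was not tested.

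The pulmonary veins collect oxygenated blood from the alveolar capillaries and return it to the left atrium. Their endothelium carries the noradrenaline transporter Slc6a2, by which the lung removes noradrenaline from blood, and, as in veins and venules of other organs, the transcription factor Nr2f2, the clotting factor carrier Vwf and the leukocyte adhesion molecules Vcam1 and Selp. Capillary endothelium of the alveoli falls into general capillary (gCap) cells and the larger aerocytes (aCap) through which gas exchange takes place. The study asked how lung endothelium responds in the first hours after melanoma cells arrive.

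Venous cells were 3.49% (95% Clopper-Pearson interval 3.07 to 3.95) of the endothelial barcodes after PBS and 4.43% (3.93 to 4.98) after melanoma cell injection. The log2 ratio of these shares was 0.35, with a counting interval of 0.10 to 0.59. The venous cells held 2091955 UMIs in the control and 2310168 in the metastatic library, with a median of 8111 and 8048 UMIs per cell and 2964 and 2927 genes. Other endothelial barcodes were shallower, at a median of 6233 and 6471 UMIs, which makes a marker easier to detect in a venous cell. When each cell was thinned to 2000 UMIs before the markers were read, the shares were 2.79% and 3.60%. The ratio of the shares changed with how barcodes with RNA of other cell types were handled, and the cause was not tested. At least 2 of 6 red cell genes were detected in 60.8% of control and 42.5% of metastatic venous cells, and in 67.0% and 42.1% of other endothelial cells. When barcodes with at least 2 detected genes of any of 10 lists of other cell types were left out of the venous cells alone, these were 1.05% and 1.93% of all endothelial barcodes, a log2 ratio of 0.88. When such barcodes were also left out of the total, the shares were 4.02% and 4.21%, a log2 ratio of 0.067 (-0.35 to 0.48). With the red cell list not used, they were 3.24% and 4.30%, a log2 ratio of 0.41 (0.12 to 0.70). Both of the last repeats were chosen after seeing the data. No barcode was venous in both libraries. Doublet scoring marked 11 control and 20 metastatic venous cells, which the rule keeps.

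The exclusion genes removed 71 control and 73 metastatic cells that had at least 3 vein markers. Among the cells removed, 50 control and 62 metastatic cells had a UMI of Fbln5, which encodes an elastic fibre protein. Fbln5 was also the one exclusion gene common in the cells kept, in 38.3% of control and 48.0% of metastatic venous cells, while Gja5 was in none of them. Its level was 77.4 and 121 CPM in venous cells against 7.67 and 9.13 CPM in other endothelial cells. At the threshold, 62 control and 71 metastatic cells had 3 vein markers and lay just inside, and 151 and 132 cells had 2 and lay just outside. Slc6a2 was 1288 CPM in control cells with 3 markers and 204 CPM in those with 2, and 886 and 246 CPM in the metastatic library. Vwf, which the rule did not read, was 1488 and 424 CPM on the same sides of the threshold in control cells and 1223 and 525 CPM in metastatic cells.

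The 6 markers chose the cells, so their levels are a description. Slc6a2 (chr8:92960079-93001667, GRCm38, plus strand) and the serine protease gene Prss23 (chr7:89507783-89527187, minus strand) were the strongest. Slc6a2 was 1844 CPM in control and 1493 CPM in metastatic venous cells, against 29.4 and 34.4 CPM in the other endothelial cells. Prss23 was 1955 and 1631 CPM. The remaining markers were lower: 197 and 324 CPM for Car8, a carbonic anhydrase-related protein, 229 and 214 CPM for Bst1, an ectoenzyme of NAD metabolism, 341 and 438 CPM for Cytl1, a secreted cytokine-like protein, and 296 and 298 CPM for the peptide-processing enzyme Cpe. Among cells with at least 3 of the other 5 markers, Slc6a2 had a UMI in 96.7% of control and 93.3% of metastatic cells, against 1.99% and 2.02% of cells with none of the other 5. For Cytl1, the marker least often seen, these shares were 50.0% and 50.6% against 1.20% and 1.26%. Prss23 was less specific, in 97.3% and 97.6% of the former and 26.7% and 18.7% of the latter.

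The label was set beside vein genes that the rule did not read, chosen with earlier results of these data known and so no independent check. Of 14 such genes, 12 had enough counts, and 11 were at least 2-fold higher in venous than in other endothelial cells in both libraries. Over all 3877 genes compared, 132 (3.4%) were at least 2-fold higher in both libraries and 110 (2.84%) at least 2-fold lower. Since the cells were chosen by their RNA, these counts describe them and no test was made. Vwf was 2357 CPM in control and 2248 CPM in metastatic venous cells, against 156 and 160 CPM in the other cells. Nr2f2, which directs venous identity, was 348 and 267 CPM against 20.3 and 24.0 CPM. Vcam1 was 668 and 687 CPM against 22.4 and 31.9 CPM, and Selp, the P-selectin on which leukocytes first roll, was 84.1 and 87.0 CPM against 2.86 and 4.94 CPM. Only Ephb4, the venous ephrin receptor, lay under 2-fold, at 151 and 134 CPM against 91.6 and 98.8 CPM.

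Arterial genes were mostly lower. Of all 3877 genes compared, 2.84% were at least 2-fold lower in both libraries. The rule leaves out cells with more than 1 arterial or aerocyte exclusion gene, and the other endothelial cells include such cells. Lower arterial and aerocyte genes are thus a description of the selected cells and no independent check of the label. Of 8 arterial list genes compared, 5 were at least 2-fold lower in venous cells in both libraries, among them Efnb2, the arterial ligand of Ephb4, at 72.2 and 73.2 CPM against 441 and 443 CPM, and the Notch ligand Dll4 at 10.5 and 13.0 CPM against 84.3 and 96.5 CPM. The other direction was seen for Mgp and Ltbp4, matrix genes of large vessels, at 420 and 432 CPM and at 253 and 235 CPM in venous cells. Of 5 aerocyte genes, 4 were at least 2-fold lower, led by the carbonic anhydrase Car4 at 25.3 and 23.8 CPM against 479 and 411 CPM. The gCap genes differed less. Of 6 gCap genes compared, 2 were at least 2-fold lower in both libraries. The 8 genes of the gCap list summed to 5253 and 5049 CPM in venous cells, against 7109 and 6524 CPM in other endothelial cells. Defining lymphatic genes were near 0. Prox1, which specifies lymphatic identity, had 1 and 3 UMIs, and Reln had none in either library, where a count of 0 allows up to 1.43 and 1.30 CPM. Lyve1, often used for lymphatic vessels, was 4290 and 3368 CPM in these venous cells and 2510 and 2008 CPM in the other endothelial cells. Ackr1, the chemokine receptor of venules in the systemic circulation, had 6 and 8 UMIs.

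**Figure D1:**
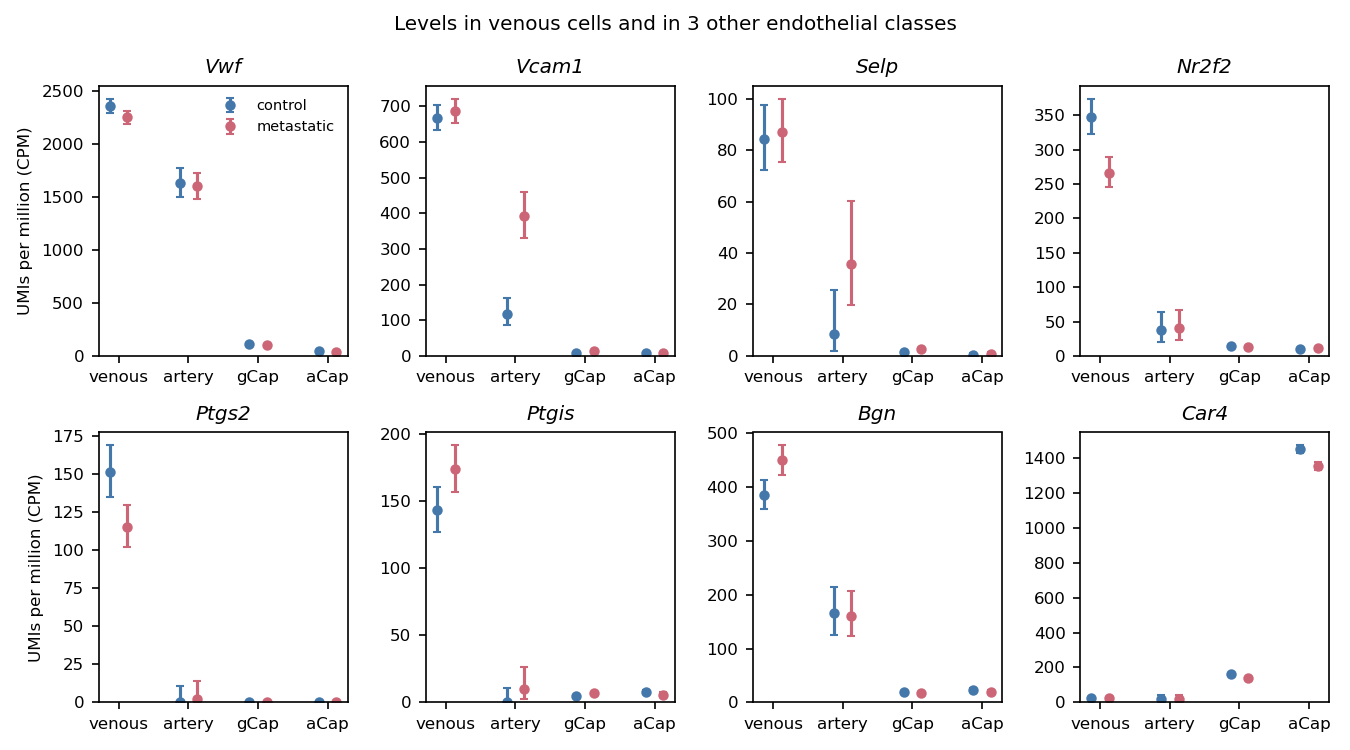
Levels in CPM (vertical axes, linear, from 0) of 8 genes in venous, artery, gCap and aCap cells of the control (blue) and metastatic (red) library, and bars are 95% Poisson intervals. Vwf, Vcam1, Selp, Nr2f2, Ptgs2, Ptgis and Bgn were highest in venous cells, with artery cells next for Vwf (1633 and 1597 CPM) and Bgn, and Car4 was highest in aCap cells. The artery, gCap and aCap classes held only cells with at most 1 vein marker, and artery cells numbered 46 and 50.

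Beyond these lists, the genes most enriched in venous cells included several that act in lipid mediator synthesis. Pla2g4a releases arachidonic acid from membranes and was 60.7 and 74.5 CPM in venous cells, against 2.08 and 2.33 CPM in the other cells. Ptgs2, the inducible cyclooxygenase that acts next, was 151 and 115 CPM against 1.95 and 4.80 CPM, and Ptgis, which makes prostacyclin, was 143 and 174 CPM against 8.37 and 10.2 CPM. Ptgs1, the constitutive cyclooxygenase, was 590 and 451 CPM against 269 and 175 CPM. Thus 3 of the 5 prostaglandin list genes compared were at least 2-fold higher in both libraries, against 3.4% of all 3877 genes compared. The 2 that take up and break down prostaglandins were not, with Hpgd at 8009 and 6535 CPM against 7094 and 5364 CPM and the transporter Slco2a1 at 1081 and 1000 CPM against 1445 and 1285 CPM. Lpcat2, which makes platelet-activating factor, was 60.2 and 48.9 CPM against 1.54 and 1.52 CPM, and Ch25h, which makes 25-hydroxycholesterol, was 188 and 177 CPM against 3.76 and 5.65 CPM.

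The 20 genes highest over other endothelial cells also held genes of transport and the cytoskeleton, among them Dnm3, Eps8, Sorbs2, Ctnnal1, Myof and Chn2. The forkhead factor Foxc1 was 89.4 and 78.8 CPM in venous against 2.26 and 2.37 CPM in other endothelial cells, and the LIM homeobox factor Lhx6 was 66.9 and 55.4 CPM against 1.86 and 2.94 CPM. Igfbp5, which binds insulin-like growth factors, was 319 and 178 CPM against 4.72 and 6.49 CPM, and Fgl2, a membrane prothrombinase, was 253 and 236 CPM against 7.38 and 7.81 CPM. Wall matrix genes were also high. Of 6 compared, Bgn, Ltbp4, Mgp and Eln were at least 2-fold higher in both libraries, against 3.4% of all 3877 genes compared. The proteoglycan gene Bgn was 386 and 450 CPM against 32.1 and 32.2 CPM. Col4a2 of the capillary basement membrane went the other way, at 217 and 218 CPM against 516 and 523 CPM.

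RNA of smooth muscle and pericytes was counted beside the matrix genes. The 7 listed genes summed to 191 CPM in control and 235 CPM in metastatic venous cells, against 46.9 and 42.5 CPM in the other endothelial cells, with Rgs5 leading and Cnn1 and Cspg4 at 0 in the control library. At least 2 of the 7 genes were detected in 23 control and 18 metastatic venous cells. The fibroblast list summed to 8.13 and 32.0 CPM, and 58.1% of the latter came from 1 cell. The part of these cells in the matrix genes was not tested.

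Venous cells differed among themselves along the number of markers detected. From cells with 3 to cells with 5 or 6 markers, Vcam1 went from 158 to 1060 CPM in the control and from 236 to 972 CPM in the metastatic library. Nr2f2 went from 154 to 466 CPM and from 193 to 319 CPM, and Vwf from 1488 to 2756 CPM and from 1223 to 2712 CPM. The gCap genes Kit, Lpl and Sema3c went the other way. Kit, the stem cell factor receptor, went from 331 to 70.0 CPM in the control and from 267 to 78.3 CPM in the metastatic library. Lpl, the lipase that gCap cells hold, went from 529 to 173 CPM and from 523 to 92.1 CPM, and the semaphorin Sema3c from 1093 to 397 CPM and from 820 to 401 CPM. The cells with 5 or 6 markers were deeper, at a median of 9301 and 8798 UMIs against 7149 and 6677 UMIs in cells with 3. The part of depth in the number of markers was not tested.

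**Figure D2:**
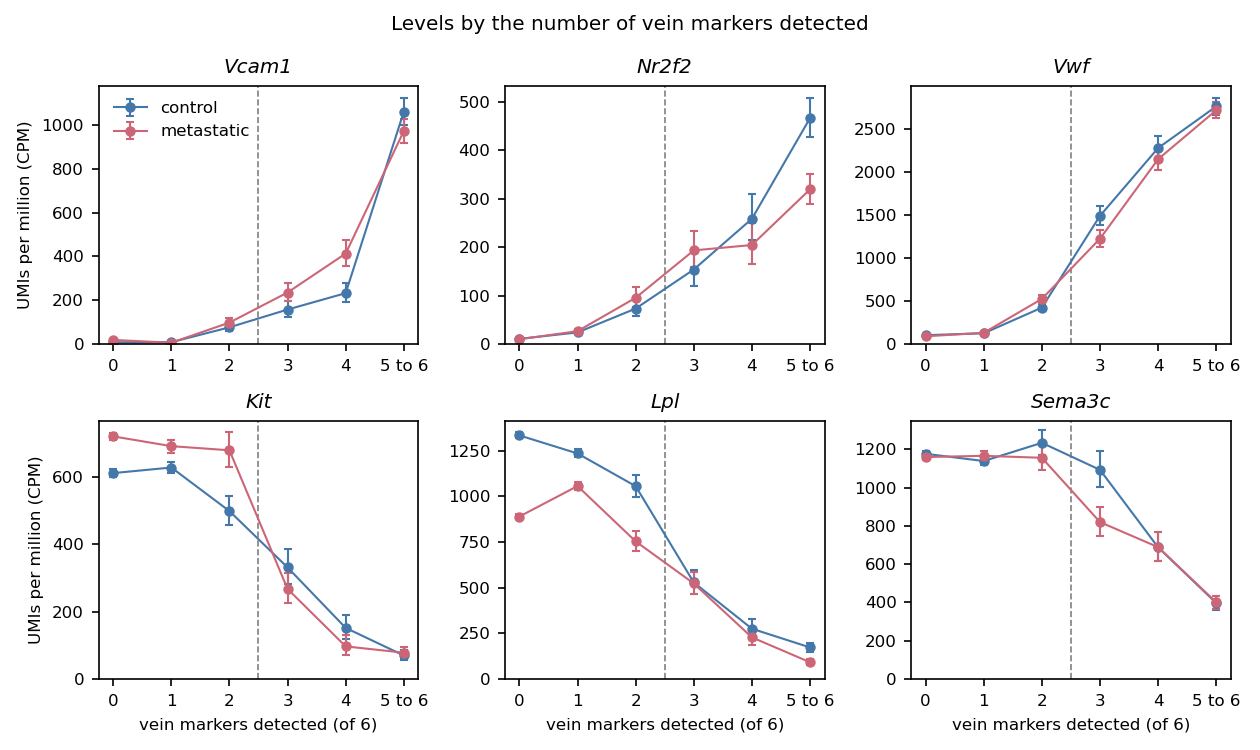
Levels in CPM (vertical axes, linear, from 0) of 6 genes against the number of vein markers detected among endothelial barcodes with at most 1 exclusion gene, control in blue and metastatic in red, and bars are 95% Poisson intervals and the dashed line is the threshold of the rule. Vcam1, Nr2f2 and Vwf were higher and Kit, Lpl and Sema3c lower toward 5 to 6 markers in both libraries.

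Vcam1 was also among the most unevenly spread genes. Its variance over mean in cells thinned to 2000 UMIs was 7.93 in the control and 5.71 in the metastatic library, where a gene at the median of 5109 genes had 0.99 in the lower of both libraries. At that depth 45.0% of control and 39.0% of metastatic venous cells had a Vcam1 UMI, against 1.36% and 2.51% of other endothelial cells and none of 50 and 52 lymphoid cells, which should lack it. A count of 0 allows up to 6.00% and 5.77% of such cells. Before thinning, the median lymphoid cell had 4833 UMIs in the control and 4723 in the metastatic library. The highest venous cell had 34 Vcam1 UMIs in the control and 20 in the metastatic library. Other genes with a high variance over mean were the immediate early genes Fos, Jun and Ier3, the contractile gene Acta2, Mgp and the fatty acid carrier Fabp4.

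Cells with and without a Vcam1 UMI were then set beside each other at equal depth, a split chosen after its values were seen. Among 3828 genes, 13 were at least 2-fold higher and 20 at least 2-fold lower in the cells with Vcam1 in both libraries. Selp was 126 CPM in control cells with Vcam1 and 22.9 CPM in those without, and 132 and 30.1 CPM in metastatic cells. Fabp4 was 220 and 19.1 CPM in the control and 321 and 63.3 CPM in the metastatic library, and Mgp was 640 and 191 CPM and 675 and 223 CPM. Ch25h was 243 and 72.5 CPM and 212 and 99.4 CPM. The genes lower beside Vcam1 included Kit, at 65.4 and 237 CPM in control and 33.0 and 172 CPM in metastatic cells, and Lpl, at 168 and 412 CPM and 75.5 and 349 CPM. The median number of vein markers was 5 in cells with Vcam1 and 4 in cells without in both libraries, so this split and the one by markers overlap.

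**Figure D3:**
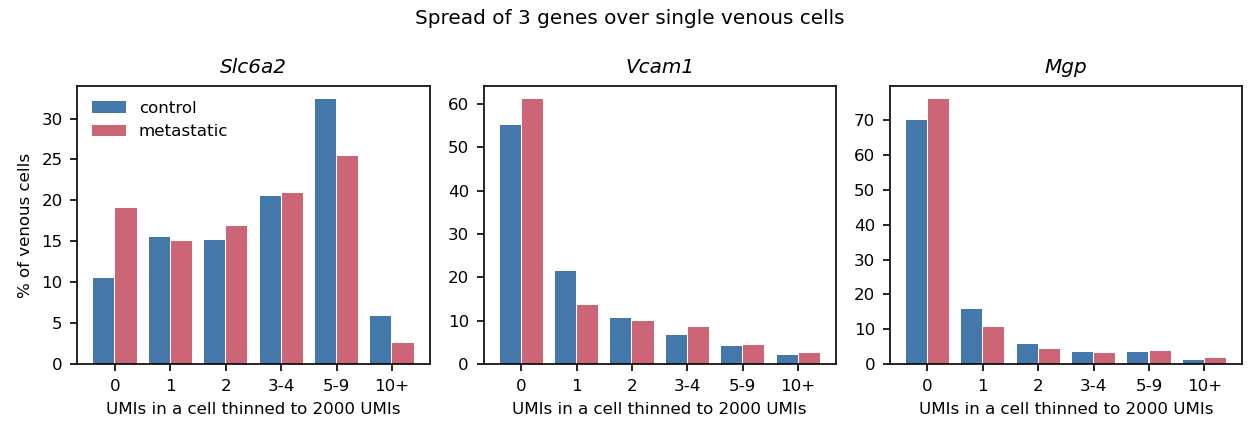
Percent of venous cells (vertical axes, from 0) with 0, 1, 2, 3 to 4, 5 to 9 and 10 or more UMIs of Slc6a2, Vcam1 and Mgp after thinning each cell to 2000 UMIs, control in blue and metastatic in red. Slc6a2 had no UMI in 10.5% and 19.1% of cells, while Vcam1 had none in 55.0% and 61.0% and reached 10 or more UMIs in 5 control and 7 metastatic cells.

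The next comparison asked what differed in venous cells after melanoma cell injection. Of 3713 genes with at least 50 CPM in either library and 100 UMIs in all, 78 (2.1%) were at least 1.5-fold higher in the metastatic venous cells and 70 (1.89%) at least 1.5-fold lower. The median log2 ratio of these genes was 0.01 and 95% of them lay between -0.54 and 0.55. The leading genes by size came from single cells of mixed content. Sftpc, the surfactant gene of alveolar type 2 cells, was 73.6 CPM in control and 2073 CPM in metastatic venous cells, but 97.2% of the metastatic UMIs were in 1 cell, and the ratio without the highest cell of each library was -0.24. One cell likewise held 225 of the 232 metastatic UMIs of Sftpb, 96.0% of those of Sftpa1 and 86.2% of Lyz2, and for the hemoglobin gene Hbb-bs 1 cell held 85.8%. The highest share of epithelial genes in a metastatic venous cell was 25.3% of its UMIs, and the highest share of red cell genes was 33.4%.

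Other genes with high ratios were spread over more cells. Bmp4, a secreted growth factor (chr14:46383520-46390669, minus strand), was 62.6 CPM in control and 156 CPM in metastatic venous cells, a log2 ratio of 1.32 (counting interval 1.02 to 1.62), and had a UMI in 79 of 240 and 152 of 273 cells. Gbp2, an interferon-inducible GTPase, was 88.9 and 214 CPM (1.27, 1.02 to 1.52) in 103 and 184 cells. Tmtc2, which encodes a membrane protein, was 45.4 and 109 CPM (1.26, 0.91 to 1.61) in 66 and 132 cells. Bmp4, Gbp2 and Tmtc2 were also higher in gCap cells, by 0.76, 0.74 and 1.11 on the log2 scale. Neurl3, a ubiquitin ligase gene, was 44.5 and 96.5 CPM (1.12, 0.76 to 1.48), the connexin gene Gja4 was 40.6 and 86.6 CPM (1.09, 0.72 to 1.48), and Hbegf, a growth factor shed from the membrane, was 22.5 and 53.2 CPM (1.25, 0.75 to 1.76). In gCap cells Neurl3, Gja4 and Hbegf were higher too, with ratios of 0.97, 0.76 and 1.39. Lmcd1, which encodes a LIM domain protein, was 22.5 and 51.1 CPM in venous cells, a ratio of 1.18 (0.69 to 1.70), where gCap cells had -0.30 (-0.60 to -0.01).

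The lower genes included glucocorticoid targets. All 10 genes of that list were measured, 9 had counting intervals below 0 and 6 were at least 1.5-fold lower. Lists were counted over genes with at least 20 UMIs, and of all 9749 such genes 505 (5.18%) were at least 1.5-fold lower, 664 (6.81%) had intervals below 0, 718 (7.36%) were at least 1.5-fold higher and 5081 (52.1%) had ratios above 0. The list median was -0.86 and that of the 9749 genes was 0.01. Zbtb16 was 315 CPM in control and 139 CPM in metastatic venous cells (-1.17, -1.37 to -0.98), Fam107a was 245 and 124 CPM (-0.98, -1.20 to -0.77), and Fkbp5, a chaperone of the glucocorticoid receptor, was 203 and 136 CPM (-0.58, -0.79 to -0.36). The list median was -0.86 in gCap cells too, where 7 genes were at least 1.5-fold lower and 3 had intervals above 0. Tsc22d3 and Klf9 had ratios nearer 0 in venous (-0.25 and -0.43) than in gCap cells (-0.77 and -0.73), with counting intervals that did not overlap. The metallothioneins Mt1 and Mt2 are among the 6 lower genes, but 1 control cell held 78.3% of the control UMIs of Mt1 and 56.0% of those of Mt2. Without the highest cell of each library the ratio of Mt1 was 0.40 and that of Mt2 was -1.15.

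Other genes at the low end were the muscarinic receptor Chrm2 at 113 and 48.9 CPM (-1.21, -1.54 to -0.88), the retinoic acid hydroxylase Cyp26b1 at 89.4 and 42.9 CPM (-1.06, -1.43 to -0.70), and the clock-linked repressor Bhlhe40 at 108 and 54.1 CPM (-0.998, -1.33 to -0.68). Chrm2 was -0.95 in gCap cells, whereas Bhlhe40 was -0.02 (-0.18 to 0.14). Igfbp5, one of the genes most enriched in veins, had a ratio of -0.84 (-1.02 to -0.66). Among vein markers, Car8 was higher, with 0.71 (0.54 to 0.89), Cytl1 had 0.36 (0.22 to 0.50), Slc6a2 had -0.30 (-0.37 to -0.24) and Nr2f2 had -0.38 (-0.54 to -0.23). Car8, Cytl1 and Slc6a2 are markers by which the rule chose the cells, so their ratios are a description only. Of the 13 other vein genes measured, 5 had counting intervals below 0 and 1 above 0, with a median of -0.07 and summed levels of 5875 CPM (5772 to 5980) in control and 5397 CPM (5303 to 5493) in metastatic cells. Of all 9749 genes with at least 20 UMIs, 664 (6.81%) had intervals below 0 and 753 above 0.

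Several leukocyte adhesion genes, high in control venous cells, had ratios near 0. Vcam1 had a ratio of 0.04 (-0.06 to 0.14) and Selp of 0.05 (-0.25 to 0.35), while in gCap cells, where they were below 20 CPM, they had 0.72 and 0.68. Icam1, the ligand of leukocyte integrins, was 576 and 516 CPM in venous cells (-0.16, -0.28 to -0.04) and had a ratio of 0.57 (0.53 to 0.62) in gCap cells. Of the 10 genes of this list only Icam2, at 375 and 479 CPM (0.35, 0.22 to 0.49), had a counting interval above 0, and the one gene past 1.5-fold, Alcam, had 68.2% of its metastatic UMIs in 1 cell. Of all 9749 genes with at least 20 UMIs, 753 had intervals above 0 and 718 (7.36%) were at least 1.5-fold higher. The list median was 0.06 in venous and 0.18 in gCap cells. These values depended on which cells were kept. In the 72 control and 119 metastatic venous cells left after removing those with at least 2 detected genes of any of the 10 lists of other cell types, most of which carried red cell genes, Vcam1 had a ratio of 0.79 (0.61 to 0.97), Selp of 0.78 (0.22 to 1.38), Icam1 of -0.27 (-0.45 to -0.09) and the list a median of 0.35. With the red cell list not used, a repeat chosen after seeing the data, 169 and 201 cells were left and Vcam1 had 0.36 (0.24 to 0.48), Selp 0.30 (-0.08 to 0.69), Icam1 -0.05 (-0.19 to 0.09) and the list 0.23. E-selectin (Sele) had 12 UMIs in 2 control cells and 15 UMIs in 5 metastatic cells.

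The genes that the study named as leading markers of reactive capillary (rCap) cells, a list chosen partly on these samples and so no independent evidence of direction, were also considered in veins. Pim3, a serine/threonine kinase, was already 491 CPM in control venous cells against 231 CPM in other endothelial cells, and was 415 CPM in metastatic ones, a ratio of -0.24 (-0.37 to -0.11). In gCap cells its ratio was 0.15 (0.10 to 0.19). No step of the gCap definition left out rCap cells, which the paper reports to express gCap markers, so gCap ratios here can include them. Osmr, an interleukin-6 family receptor, had -0.41 in venous and 0.29 in gCap cells, and the metalloprotease Adamts9 -0.63 and 0.54. Tmem252 was 555 and 554 CPM. Bcl3, a nuclear co-factor of NF-kB, was the exception with 17.7 and 39.0 CPM, a ratio of 1.14 (0.57 to 1.73) in venous and 1.53 in gCap cells. Inhbb, an activin subunit, had 1 UMI in control and 7 in metastatic venous cells (2.66, -0.30 to 8.16). Of the 6 list genes measured, 1 was at least 1.5-fold higher and 1 lower, against 7.36% and 5.18% of all genes counted so, and the list median was -0.21 in venous and 0.40 in gCap cells.

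Low-level NF-kB targets had higher values, while the list's summed level was 2198 CPM (2135 to 2263) in control and 2196 CPM (2136 to 2257) in metastatic venous cells. Of 12 genes, 11 had ratios above 0 and 7 were at least 1.5-fold higher, against 52.1% and 7.36% of all genes counted so. The median was 0.84 in venous and 0.59 in gCap cells. Relb was 23.4 and 45.5 CPM (0.96, 0.45 to 1.48), Nfkb2 was 8.60 and 16.4 CPM (0.93, 0.09 to 1.83), and Tnfaip3, the deubiquitinase that ends NF-kB signalling, was 12.9 and 26.4 CPM (1.03, 0.36 to 1.74). The NF-kB inhibitor Nfkbia, at 1660 and 1533 CPM, had -0.12 (-0.18 to -0.05). Except for Nfkbia and Irf1, at 292 and 305 CPM, these genes were at or under 112 CPM, so their intervals were wide.

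Promoter sequences of 4 genes are given because the genes differ in response while each holds a letter match to an NF-kB motif. The motifs GGANTTTCC and GGGANTTCC, which overlap each other, were searched on both strands of RefSeq promoter windows (GRCm38.p6, from 250 bases before to 50 after the start). They were found in 2.89% of all 32851 windows, in 8 of 14 windows of the NF-kB target list and in 1 of 6 windows of the adhesion list. Only 10 of the 12 genes of the NF-kB target list and 6 of the 10 of the adhesion list had a window. By gene, 6 of those 10 and 1 of those 6 held a motif, against 3.32% of all genes with a window. One window is shown per gene. Tnfaip3 has another with no match, and Nfkb2 has 2 others with 1 match each, beginning 11 bases after and 224 bases before their starts. A letter match is not a bound site. Capitals mark the matches, written 5' to 3' on the strand of the gene.
Tnfaip3: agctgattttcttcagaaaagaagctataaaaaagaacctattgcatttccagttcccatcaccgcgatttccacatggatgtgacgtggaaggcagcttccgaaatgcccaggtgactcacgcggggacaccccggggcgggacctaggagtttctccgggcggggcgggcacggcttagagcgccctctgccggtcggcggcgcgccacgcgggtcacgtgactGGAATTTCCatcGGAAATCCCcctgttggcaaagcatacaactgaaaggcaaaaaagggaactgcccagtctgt
Nfkb2: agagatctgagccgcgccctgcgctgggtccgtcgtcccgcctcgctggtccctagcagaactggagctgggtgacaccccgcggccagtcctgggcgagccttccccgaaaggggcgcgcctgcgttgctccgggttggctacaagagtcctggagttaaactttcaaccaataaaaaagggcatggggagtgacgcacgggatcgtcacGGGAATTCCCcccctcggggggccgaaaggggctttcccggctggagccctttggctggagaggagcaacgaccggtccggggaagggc
Nfkbia: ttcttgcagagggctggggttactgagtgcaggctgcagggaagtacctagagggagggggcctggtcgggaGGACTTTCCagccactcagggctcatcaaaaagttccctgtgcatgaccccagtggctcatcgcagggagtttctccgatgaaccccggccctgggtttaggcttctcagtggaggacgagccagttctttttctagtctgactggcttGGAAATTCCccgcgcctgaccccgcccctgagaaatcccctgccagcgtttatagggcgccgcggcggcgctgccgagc
Icam1: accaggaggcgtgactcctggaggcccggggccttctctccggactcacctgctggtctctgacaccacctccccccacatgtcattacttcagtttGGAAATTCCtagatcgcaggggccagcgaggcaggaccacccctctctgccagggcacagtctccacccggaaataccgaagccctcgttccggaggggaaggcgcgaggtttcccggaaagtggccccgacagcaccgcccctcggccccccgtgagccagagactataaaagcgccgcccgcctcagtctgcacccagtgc
Tnfaip3 (chr10:19015361-19015660, minus strand) had matches beginning 24 and 12 bases before the start site, Nfkb2 (chr19:46304487-46304786, plus strand) overlapping matches 39 and 38 bases before it, Nfkbia (chr12:55492598-55492897, minus strand) matches 178 and 29 bases before it, and Icam1 (chr9:21015690-21015989, plus strand) 1 match 153 bases before it. In venous cells the first pair had ratios of 1.03 and 0.93 and the second pair -0.12 and -0.16.

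Chemokine and cytokine genes summed to 217 and 356 CPM in venous cells, against 474 and 656 CPM in other endothelial cells. Csf1, which maintains macrophages, was 52.1 and 103 CPM (0.99, 0.66 to 1.33) in 68 and 122 cells. Cxcl10, an interferon-induced chemokine, was 30.1 and 68.8 CPM (1.19, 0.76 to 1.64), in only 10 and 16 cells, with 42.9% and 35.8% of its UMIs in the highest cell. In other endothelial cells Cxcl10 was lower, at 10.2 and 28.1 CPM. Ccl2 had no UMI in control venous cells, which allows up to 1.43 CPM, and 20 UMIs in the metastatic library, 19 of them in 1 cell. The 5 list genes with at least 20 UMIs and a control UMI all had ratios above 0, as did 52.1% of all genes with at least 20 UMIs. The list median was 0.80 in venous and in gCap cells.

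All 10 interferon-induced genes had ratios above 0 and 4 were at least 1.5-fold higher, against 52.1% and 7.36% of all genes counted so. The median was 0.45 in venous and 0.26 in gCap cells, 0.055 without the venous cells with RNA of any of the 10 other types, and 0.36 with the red cell list not used. Isg15, a ubiquitin-like modifier induced by interferon, was 151 and 199.6 CPM (0.41, 0.20 to 0.62), where gCap cells had 0.50 (0.44 to 0.56). The 7 class II antigen presentation genes all had ratios above 0 and 2 were at least 1.5-fold higher, against 52.1% and 7.36% of all genes counted so. Their median was 0.47 in venous and 0.61 in gCap cells, where all 7 had ratios above 0 and 4 were at least 1.5-fold higher. The invariant chain Cd74 was 253 and 459 CPM (0.86, 0.71 to 1.01), and Ciita, the class II master regulator, had 8 UMIs in 6 control cells and 39 in 27 metastatic cells (2.14, 1.02 to 3.45).

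**Figure D4:**
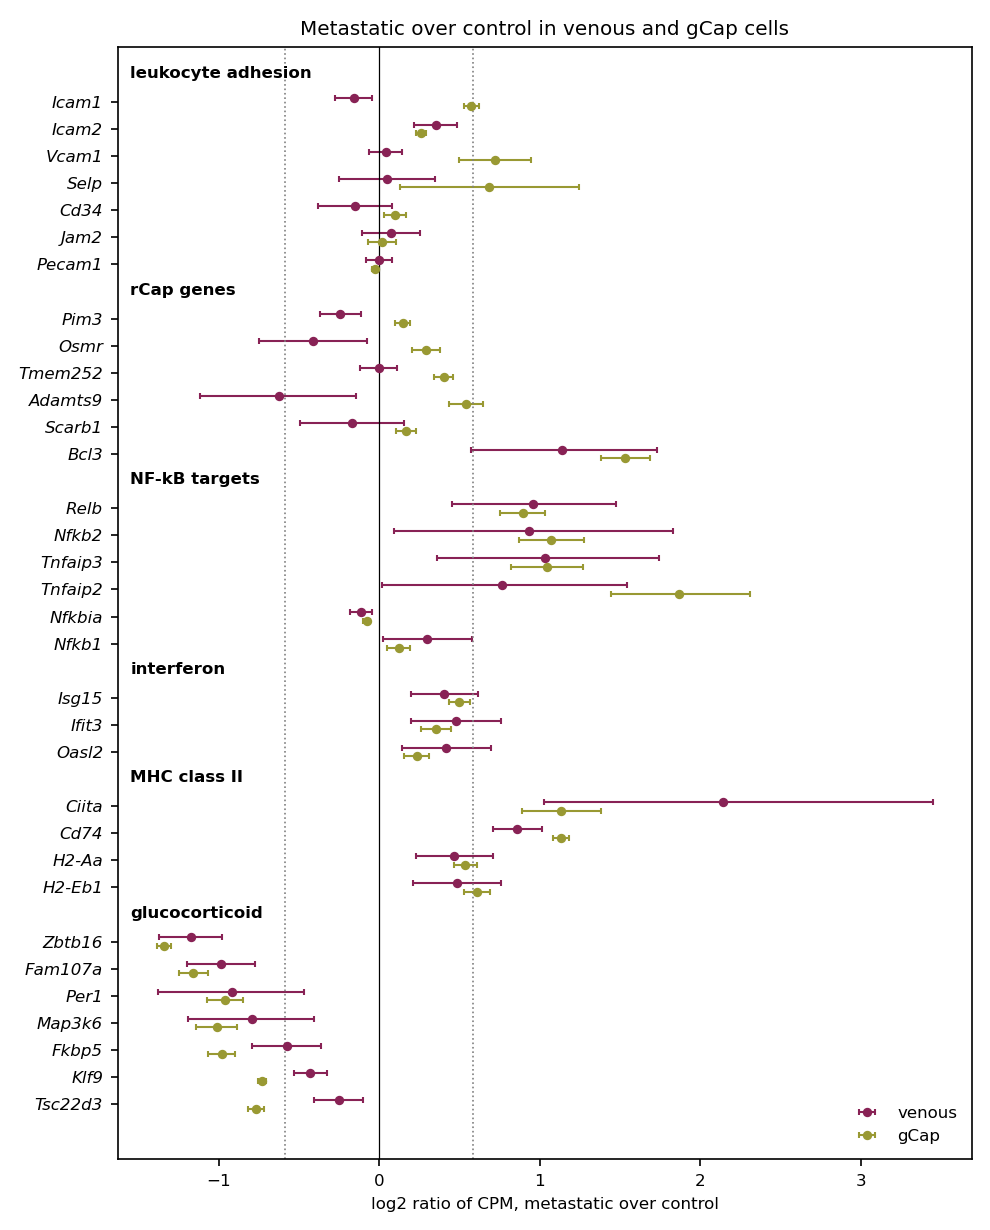
Log2 ratio of CPM, metastatic over control (horizontal axis), of genes from 6 lists in venous (purple) and gCap (olive) cells, and bars are 95% counting intervals and dotted lines mark 1.5-fold. Icam1, Pim3, Osmr and Adamts9 lay on opposite sides of 0 in venous and gCap cells, while NF-kB regulators, interferon, class II and glucocorticoid genes shown lay on the same side in both. Mt1 and Mt2 of the glucocorticoid list, not shown, had -1.51 and -1.98 in venous and 2.35 and 3.08 in gCap cells. The gCap class could include rCap cells.

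Genes of vessel tone and growth varied by gene. The vasoconstrictor gene Edn1 was 188 and 304 CPM (0.69, 0.51 to 0.87), against a ratio of 0.33 in gCap cells, while the shear-induced Klf2 was 3559 and 3479 CPM (-0.03, -0.08 to 0.01) and S1pr1 was 634 and 477 CPM (-0.41, -0.53 to -0.29). In the VEGF and Tie list the median was 0.22, with Nrp1 at 304 and 478 CPM (0.65, 0.51 to 0.80), Vegfa at 49.2 and 76.2 CPM (0.63, 0.27 to 0.99) and the Tie2 antagonist Angpt2 at 22.5 and 37.2 CPM (0.73, 0.20 to 1.27). Prostaglandin genes had a median of -0.29, with Ptgs2 at -0.39 (-0.63 to -0.15) and Ptgis at 0.28 (0.06 to 0.50). Elastin (Eln, chr5:134702593-134747323, minus strand) was 222 and 316 CPM (0.51, 0.34 to 0.68) in venous cells and had a ratio of -0.16 (-0.24 to -0.08) in gCap cells.

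The median ratio in venous cells was 0.19 for heat shock genes, 0.13 for Jak and Stat genes, 0.07 for junction genes, 0.02 for wall matrix genes, -0.07 for immediate early genes and 0.09 for coagulation genes. The clock list had -0.39 over 9 genes with few UMIs. The monoamine list had 0.61 (0.24 to 0.98) over 3 genes. In it, Slc6a4, the serotonin transporter, had 4 and 7 UMIs, and both monoamine oxidases were higher, with Maoa at 47.8 and 72.7 CPM (0.61, 0.24 to 0.98) and Maob at 13.9 and 30.3 CPM (1.13, 0.48 to 1.81). Melanocyte genes, carried by B16-F10 cells, summed to 5 UMIs in control and 7 in metastatic venous cells, although the low-UMI barcodes of both libraries held them. Cell cycle genes were near the floor, with Mki67 at 3 and 4 UMIs.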

How the data were processed

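The deposited files hold UMI counts per gene and barcode, which the authors made with Cell Ranger on mm10 (version 3.1.0 per the file headers) and deposited without a cell call. Each library pooled 2 mice. The libraries held 67929614 and 64733724 UMIs. Barcodes were chosen by the rule given above, and UMIs were summed per class and library and divided by the class total. No barcode was removed as a doublet in the main result. Scrublet, run through scanpy 1.11.5, marked 407 of 7134 control and 334 of 6466 metastatic barcodes, and an alternative left them out.

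CPM ratios carry exact conditional binomial intervals, shares carry Clopper-Pearson intervals and levels carry exact Poisson intervals, all at 95% (Python 3.11.15, scipy 1.17.1). Responses were compared among genes with at least 50 CPM in either library and 100 UMIs over both, at 1.5-fold, and classes at 2-fold in both libraries. List medians used genes with at least 20 UMIs, with the medians of the members' bounds as interval. The gCap cells had at least 3 of Gpihbp1, Kit, Cd93, Glp1r, Sema3c, Aplnr, Plvap and Lpl, at most 1 vein marker and at most 1 exclusion gene. Cells of the rCap type were not left out of this class. Cells called aCap had at least 2 of Ednrb, Fibin and Tbx2, and artery cells at least 2 of Gja5, Bmx and Fbln5. Both classes had at most 1 vein marker and at most 1 gene of the set that defines the other. The artery class held 46 control and 50 metastatic cells. Gene coordinates are from GENCODE M21 and promoters from RefSeq. TMM factors from edgeR 4.0.16 were an alternative.

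Genes named were those of the rule and lists, the 15 highest and 15 lowest ratios whose interval did not hold 0, the 20 highest and 10 lowest over other endothelial cells, and the 15 with the highest variance over mean. The members and lists were chosen with earlier results of these data known. The ratio script was tested on simulated data. Some genes are not reported here.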

Additional observations from a re-analysis of the deposited data

Results flagged for a closer look

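Of 267 named genes compared, 15 had log2 ratios of opposite sign in venous and gCap cells with both counting intervals away from 0. The named genes were chosen with earlier results of these data known, some by the size of their ratio. The share among all genes was not computed, so nothing is concluded from the count. With 1 library per group the difference between the classes was not tested, and the gCap class could include rCap cells. In 8 genes the venous ratio was the lower. Icam1 had -0.16 in venous and 0.57 in gCap cells, Pim3 -0.24 and 0.15, Osmr -0.41 and 0.29, and Adamts9 -0.63 and 0.54. Ier3, an immediate early gene, had -0.21 and 0.14, and the basement membrane collagen Col4a1 -0.13 and 0.09. The metallothioneins Mt1 and Mt2 had -1.51 and -1.98 in venous cells and 2.35 and 3.08 in gCap cells, with 78.3% and 56.0% of the control venous UMIs in 1 cell.

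In 7 genes the venous ratio was the higher. The matrix genes Eln and Bgn had 0.51 and 0.22 in venous and -0.16 and -0.20 in gCap cells. Lmcd1 had 1.18 and -0.30, the membrane protein gene Emp2 0.31 and -0.26, and the phosphatase gene Dusp1 0.35 and -0.04. Bmx, a kinase gene of the exclusion set, had 2.03 and -0.43, on 6 control and 27 metastatic venous UMIs. The rule read Bmx to choose the cells, so its ratio is a description only. The nuclear RNA Malat1 had 0.02 and -0.05.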

How the results depend on the processing

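One library per group, of pooled mice, leaves the spread between mice unmeasured, and low genes rest on few UMIs. No paired analysis was possible because each group has 1 library. Of 483 repeats of the main results, 453 stayed within 1.5 times of a count or within the counting interval. The lymphatic median, of 1 gene at -0.35, changed sign with no limit on exclusion genes (3 genes) and with no minimum. The cause of the moves below was not tested.

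Without venous cells with at least 2 detected genes of any list of another type, the log2 share ratio was 0.88, 120 genes were higher, and medians were 0.35 for leukocyte adhesion, 0.055 for interferon, -0.25 for immediate early, -0.26 for lipid and -0.42 for lymphatic genes. With such barcodes also left out of the total, the share ratio was 0.067, and with the red cell list not used, medians were -0.40 for systemic venule and -0.41 for lymphatic genes, both added after seeing the data. With at least 2 markers, general capillary genes had 0.058 and lymphatic genes -1.05, and 65 genes were 2-fold lower than in other endothelial cells. With no limit on exclusion genes, lymphatic genes had 3.64 and prostaglandin genes -0.10. With the rule read at 2000 UMIs, lymphatic genes had -0.21 and flow genes 0.039. With no minimum on genes, 2840 of 14672 genes were higher and 2113 lower, 730 of 19855 were 2-fold higher and 3537 lower than in other endothelial cells, lymphatic genes had 0.65 and lipid genes 0.13. TMM factors gave 67 higher and 84 lower genes.

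The planned subtraction of free RNA was not run, since its estimated share was 109.3% in metastatic venous cells. An estimate without the richest cells, added after seeing the data, gave 17.3% and 9.54%, 185 higher and 123 lower genes, and medians of -0.46 for lymphatic, 1.45 for class II, -0.14 for immediate early, 0.36 for heat shock and -0.41 for prostaglandin genes.

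Of 3501 repeats of named genes, 302 moved outside the main counting interval. Another 20 changed sign from a main ratio of at least 1.5-fold whose interval did not hold 0. Sign changes of smaller main ratios were not counted apart. With at least 4 markers, Sftpb had -0.72, Sftpc -0.44 and Sftpa1 -0.29. With the rule at 2000 UMIs, Fn1 had -0.31, Sftpb -1.14, Sftpc -0.57 and Sftpa1 -0.33. Without cells with RNA of another type, Usp18 had -0.12, Mt1 2.37, Sftpb -0.70, Hbb-bs -1.03 and Hba-a2 -0.86, and with the red cell list not used, Mt1 had 2.20, Sftpb -0.23 and Sftpc -0.32. Without cells holding over 1% of another type's RNA, also added after seeing the data, Sftpc had -0.28, Sftpa1 -0.38, Hbb-bs -0.74, Hba-a2 -0.56 and Hba-a1 -0.52.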
